A study of Homo sapiens with 38 samples.

Results

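The genes described here are the 33 genes of the amino acid starvation response that is run by the transcription factor ATF4. The list was chosen by name, with earlier results of these data known, and was looked up by symbol. All 33 were found among the 58735 genes of the RNA-seq table, and all 33 were targeted in both guide tables, by 127 of 66890 guides in Hep3B and by 125 of 66582 guides in SNU-398. The study asked which gene knockouts alter the response of human hepatocellular carcinoma cells to targeted drugs, and then followed PSTK, the kinase that prepares selenocysteine tRNA. Pooled CRISPR/Cas9 knockout screens were read in Hep3B and SNU-398 cells that stably express Cas9, and in either line 8 groups were sampled in 2 libraries apiece, 32 in all. RNA-seq was read in 6 libraries of Hep3B, namely 3 control libraries and 3 libraries of PSTK-KO cells (genotype PSTK-/-). No animals and no donor tissue entered these libraries.

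In each line the groups were T0, harvested after puromycin selection and before treatment, T1, and 6 inhibitor groups that were kept for 14 days. T1 was taken as the vehicle group, because the methods describe a vehicle arm and the other 7 groups are named in the labels. Sorafenib, Regorafenib and Lenvatinib are tyrosine kinase inhibitors, Erastin is an inducer of ferroptosis that blocks cystine import, and Abemaciclib and Palbociclib inhibit the cell cycle kinases CDK4 and CDK6. PSTK-KO cells were made by transducing Cas9-expressing cells with a construct that carries 2 PSTK guides, followed by puromycin, and no cloning step is described. The methods call the RNA-seq libraries biological replicates, while nothing says whether the 2 libraries of a screen group came from separate cultures. The edgeR p-values from the screens therefore measure only the spread between libraries, which may be technical. P-values of the score NormZ, described with the second comparison, place a gene among all genes of a screen and do not measure that spread.

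ATF4 is the output of the integrated stress response. When amino acids run short, uncharged tRNAs activate the kinase GCN2 (gene EIF2AK4), which phosphorylates the initiation factor eIF2, and general translation slows while translation of ATF4 mRNA increases. ATF4 then pairs with C/EBP family partners on composite DNA elements and switches on genes for amino acid synthesis, amino acid import, tRNA charging and feedback on the pathway itself.

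The element that ATF4 and its C/EBP partners bind has the core TGATGNAA, where N is any base. This core was looked for on both strands in the 300 bases around each RefSeq start of the GRCh38.p14 build, from 250 bases before to 50 after. It was found in 14.0% of the 43 promoters listed for 27 of the 33 genes, against 3.62% of all 35116 promoters. By gene this was 6 of 27, or 22.2%, against 4.46% of all 27305 genes. Of these 6, 5 were among the 15 that rose in PSTK-KO cells, 0 were among the 5 that fell and 1 (JDP2) was among the 7 not called. A match is a description of these letters and not a binding site. The 4 genes that rose with the smallest adjusted p among those with a match are shown because they are the clearest cases of the element beside a measured rise, with the core in capitals and 11 bases on either side, 5′ to 3′ on the strand of the gene. RefSeq lists 3 starts for SLC1A5 and 2 for each of the others, and the core lay at 1 of them. In CEBPG the window is chr19:33374060-33374089 on the plus strand, and its core begins 42 bases before a start that lies 404 bases downstream of the first one listed. In SLC1A5 it is chr19:46784893-46784922 on the minus strand, 97 bases before the most downstream start, which lies 3780 bases inside the gene. In ASNS it is chr7:97872458-97872487 on the minus strand, 68 bases before the first start. In SLC1A4 it is chr2:64989381-64989410 on the plus strand, 7 bases before a start 920 bases downstream of the first one, with the core on the other strand so that it reads in reverse complement.
CEBPG: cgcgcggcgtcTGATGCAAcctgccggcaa
SLC1A5: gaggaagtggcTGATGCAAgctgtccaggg
ASNS: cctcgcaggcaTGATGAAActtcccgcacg
SLC1A4: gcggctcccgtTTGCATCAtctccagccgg

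The RNA-seq libraries held 15404153 to 16851558 counts, and the screen libraries held 11198022 to 46376708. Whole-gene counts of PSTK did not separate the groups (log2 fold change -0.06 ± 0.18 SE, edgeR adjusted p = 0.84), and such counts do not check a short deletion. The 7 hepatocyte markers (ALB, AFP, APOA1, APOB, TTR, SERPINA1 and FGB) were all below 1 FPKM (fragments scaled by gene length and library size) in every library labelled Hep3B, with TTR at 0 in all. Their summed level was 0.561 to 0.796 FPKM in control and 0.306 to 0.372 FPKM in PSTK-KO libraries. ALB fell from 0.685, 0.428 and 0.454 FPKM to 0.0187, 0 and 0 FPKM (edgeR adjusted p = 5.95e-08), whereas FGB rose 5.86-fold (edgeR adjusted p = 0.00543). The summed levels of 3 fibroblast and 3 endothelial markers were also lower in PSTK-KO (2.48 to 2.79 against 3.57 to 4.19 FPKM, and 0.99 to 1.18 against 1.52 to 1.68 FPKM), and 2 of 3 blood cell markers were at 0. The part of these marker levels in the results was not tested, and in bulk RNA a change in the number of cells of a type and a change in RNA per cell cannot be told apart. The name Hep3B follows the labels, and whether these marker levels are those of that line was not tested. In the screens, 1 SNU-398 library (Erastin replicate 2) stood apart. Over 64186 shared guides its correlation was 0.96 both with Hep3B T1 replicate 1 and with SNU-398 T1 replicate 1, while the other 15 SNU-398 libraries lay between 0.896 and 0.946 with that Hep3B library. The Erastin calls of SNU-398 are therefore given with and without it.

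The first comparison asked whether the ATF4 response genes differed between PSTK-KO and control Hep3B cells. All 33 passed the filter on low counts. In PSTK-KO cells 18 rose, 5 fell and 10 did not pass the test at an edgeR adjusted p under 0.05. Of all 15370 genes tested, 15.6% rose and 17.2% fell, so that the members rose in 54.5% and fell in 15.2% of cases. The median log2 fold change was 0.26 over the members and 0.00 over all genes tested. In 21 members every PSTK-KO library lay above every control library, which held for 20.7% of all genes, and in 7 members every one lay below, which held for 22% of all genes. Levels are given below as FPKM in control replicates 1, 2 and 3 and then PSTK-KO replicates 1, 2 and 3, and fold changes are from the edgeR fit to counts.

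**Figure D1:**
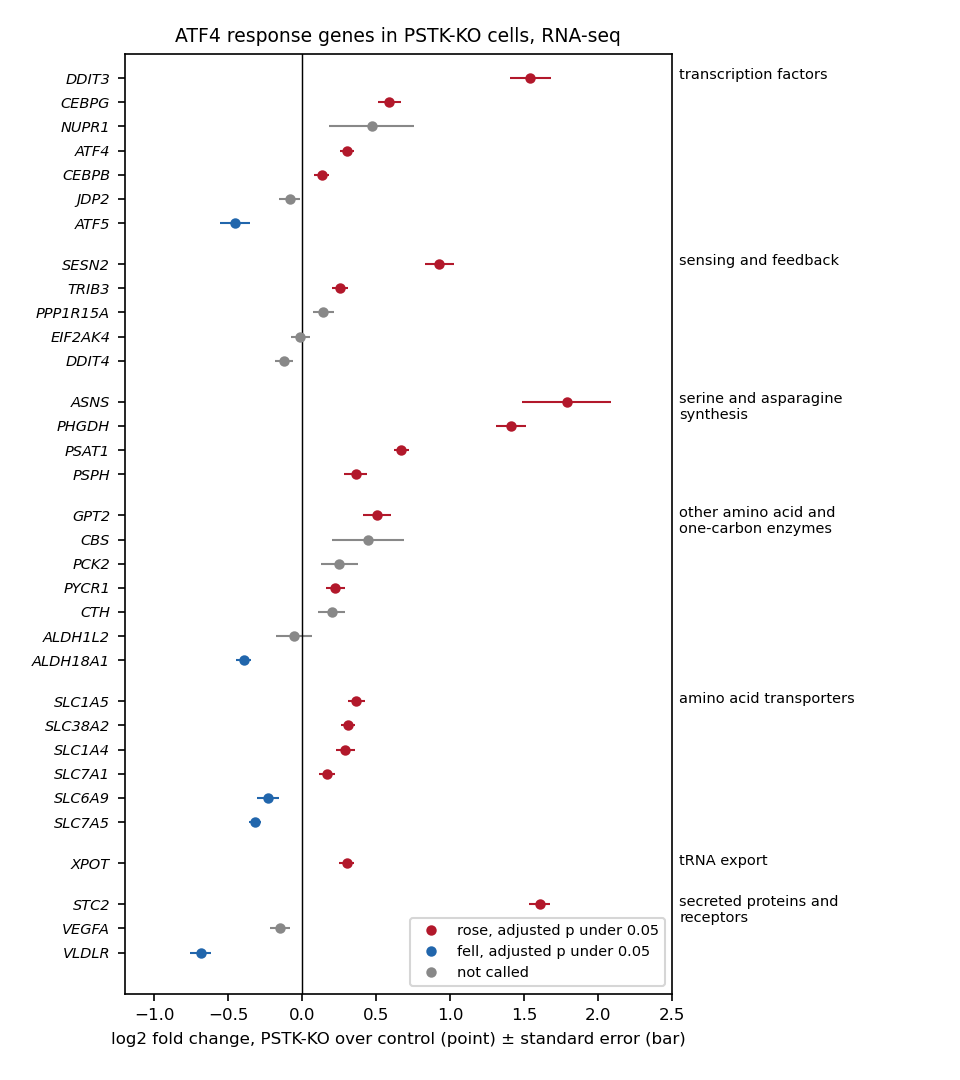
Log2 fold change of PSTK-KO over control Hep3B for the 33 genes, grouped by role, from the edgeR fit to 3 against 3 libraries. Points are estimates and bars are standard errors. The 4 enzymes of serine and asparagine synthesis all lie to the right of 0, whereas the transcription factors, transporters and secreted proteins hold genes on both sides.

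Serine and asparagine synthesis was the group with the most uniform direction, since all 4 of its genes rose, with a median log2 fold change of 1.04. PHGDH, which takes the first step of serine synthesis from glycolysis, was at 1.13, 1.20 and 1.12 FPKM in control and at 3.14, 3.01 and 3.06 FPKM in PSTK-KO libraries. All PSTK-KO libraries were higher, and the rise was 2.66-fold (log2 1.41 ± 0.10 SE, edgeR adjusted p = 4.63e-13). PSAT1, the aminotransferase of the second step, was far more abundant per length, at 56.7, 58.1 and 58.0 FPKM in control and 88.9, 94.1 and 92.4 FPKM in PSTK-KO libraries. The groups did not overlap and the rise was 1.59-fold (log2 0.67 ± 0.05 SE, edgeR adjusted p = 2.43e-12). PSPH, the phosphatase that releases serine, went from 9.74, 11.8 and 9.99 FPKM to 13.5, 13.2 and 13.9 FPKM, again without overlap (log2 0.36 ± 0.08 SE, edgeR adjusted p = 0.000698), though a close pseudogene copy of PSPH makes the split of its reads uncertain. Thus the size of the rise fell along the order of the pathway from PHGDH to PSPH, while the level per length was highest for the middle enzyme.

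ASNS, the amidotransferase that makes asparagine and is a classic ATF4 target, had the largest fold change of the 33 genes but one of the lowest levels. It held 12, 18 and 13 counts in control and 41, 58 and 55 counts in PSTK-KO libraries. Every PSTK-KO library was above every control library, at 0.581, 0.792 and 0.715 FPKM against 0.168, 0.244 and 0.186 FPKM. The rise was 3.46-fold (log2 1.79 ± 0.30 SE, edgeR adjusted p = 1.56e-05), and its standard error was the widest of the 33 genes. Even after the rise, the mean level of ASNS (0.696 FPKM) stayed below that of PHGDH in control cells (1.15 FPKM).

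Among the 7 transcription factors, 4 rose, 1 fell and 2 were not called, with a median log2 fold change of 0.30. ATF4 mRNA was high at 95.2, 93.3 and 97.6 FPKM in control and 117, 119 and 117 FPKM in PSTK-KO libraries. The groups did not overlap, and the rise was 1.23-fold (log2 0.30 ± 0.05 SE, edgeR adjusted p = 7.1e-06). ATF4 is regulated mainly at translation, which these counts do not measure. DDIT3, which encodes the stress factor CHOP, stood at 3.49, 3.37 and 3.91 FPKM in control and 10.2, 10.2 and 11.04 FPKM in PSTK-KO libraries. This was a 2.91-fold rise without overlap (log2 1.54 ± 0.14 SE, edgeR adjusted p = 1.07e-10), the largest among the transcription factors. DDIT3 lies partly over MARS and MBD6 on the opposite strand, and MARS held far more reads (mean 2099.7 counts against 150.8), so with the strand of counting not stated their reads cannot be told apart there. CEBPG, a C/EBP partner of ATF4 that holds the core shown above beside its downstream start, went from 8.10, 9.33 and 10.2 FPKM to 13.5, 13.6 and 14.6 FPKM. All 3 PSTK-KO libraries were higher (log2 0.59 ± 0.08 SE, edgeR adjusted p = 1.45e-07).

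ATF5, a relative of ATF4 that is controlled by the same upstream reading frame mechanism, went the other way. It was at 8.24, 7.2 and 7.74 FPKM in control and at 5.90, 5.23 and 5.85 FPKM in PSTK-KO libraries. Every PSTK-KO library was lower (log2 -0.45 ± 0.10 SE, edgeR adjusted p = 0.000625), and ATF5 overlaps NUP62 on the opposite strand, which held a mean of 1387 counts against 321. CEBPB, another C/EBP partner, rose only slightly (log2 0.13 ± 0.05 SE, edgeR adjusted p = 0.0432), and this call was lost without control replicate 2 and without each PSTK-KO replicate in turn, as well as without a filter and with limma on FPKM. NUPR1, a small stress-induced chromatin protein, did not pass (log2 0.47 ± 0.28 SE, edgeR adjusted p = 0.222) although its 3 PSTK-KO libraries, at 0.343 to 0.419 FPKM, lay above the controls at 0.244 to 0.304 FPKM. JDP2, a bZIP repressor, had a log2 fold change of -0.09 and was not called.

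**Figure D2:**
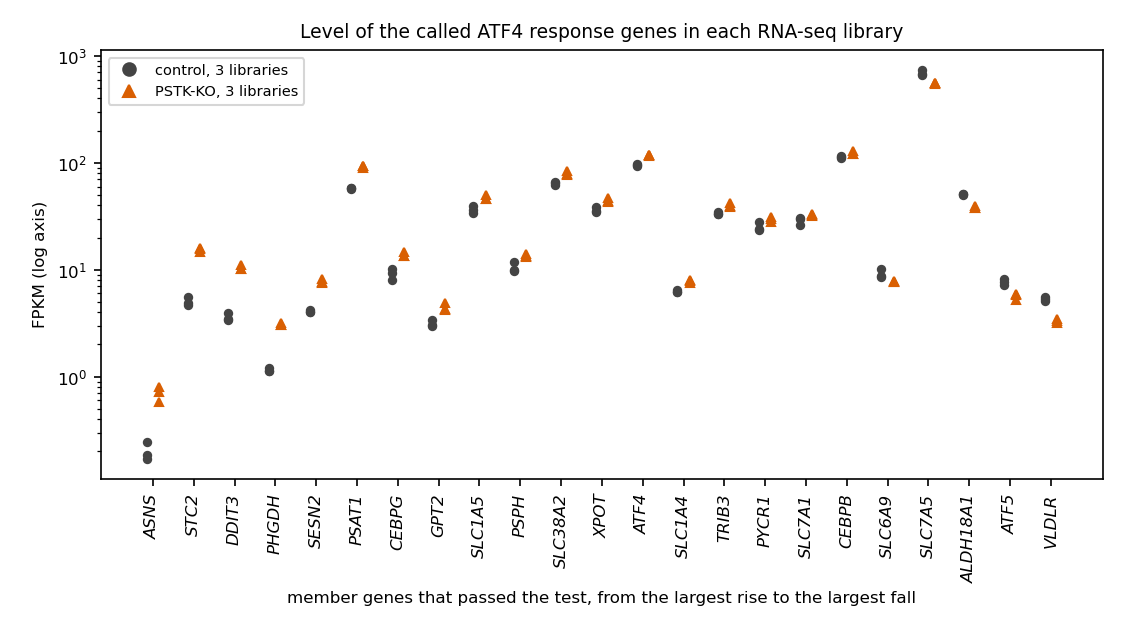
FPKM (log axis) of the 23 called genes in each RNA-seq library, ordered from the largest rise to the largest fall, with circles for the 3 control and triangles for the 3 PSTK-KO libraries. Genes with the largest rises, such as ASNS at 0.168 to 0.792 FPKM, sit low on the axis, while SLC7A5 at 548 to 740 FPKM is the most abundant and fell.

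Of the 5 sensing and feedback genes, 2 rose and 3 were not called (median log2 fold change 0.14). SESN2, the leucine-binding sestrin that restrains mTORC1, was at 4.0, 4.22 and 3.99 FPKM in control and at 7.48, 7.65 and 8.16 FPKM in PSTK-KO libraries. The libraries of each group lay close together and far from the other group, with a rise of 1.9-fold (log2 0.93 ± 0.10 SE, edgeR adjusted p = 3.38e-09). TRIB3, a pseudokinase that is induced by ATF4 and CHOP and dampens them, went from 34.6, 32.9 and 33.4 FPKM to 42.3, 39.7 and 38.9 FPKM. These did not overlap either, although the difference was smaller (log2 0.26 ± 0.05 SE, edgeR adjusted p = 0.000386). EIF2AK4, the GCN2 kinase itself, had a log2 fold change of -0.01 ± 0.06 SE and PPP1R15A, the inducible subunit of the eIF2 phosphatase, one of 0.14 ± 0.07 SE, and neither was called. DDIT4, an mTORC1 inhibitor also known as REDD1, was at 38.2 to 41.9 FPKM in control and 34.5 to 37.7 FPKM in PSTK-KO libraries and did not pass (log2 -0.13 ± 0.06 SE, edgeR adjusted p = 0.122).

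The 7 other enzymes of amino acid and one-carbon metabolism were divided, with 2 that rose, 1 that fell and 4 not called (median log2 fold change 0.22). GPT2, the mitochondrial alanine aminotransferase, was at 3.38, 2.98 and 3.06 FPKM in control and 4.21, 4.90 and 4.28 FPKM in PSTK-KO libraries. All PSTK-KO libraries were higher (log2 0.51 ± 0.09 SE, edgeR adjusted p = 6.29e-05). The 2 proline synthesis enzymes moved apart. ALDH18A1, which catalyses the first steps from glutamate, went down from 50.8, 49.5 and 50.6 FPKM to 38.0, 39.5 and 37.7 FPKM, without overlap (log2 -0.39 ± 0.05 SE, edgeR adjusted p = 1.72e-07). PYCR1, which makes proline in the last step, went from 28.2, 24.0 and 23.8 FPKM to 30.8, 29.9 and 28.2 FPKM. Its lowest PSTK-KO library and highest control library nearly met (log2 0.22 ± 0.07 SE, edgeR adjusted p = 0.00814), and the call was lost without PSTK-KO replicate 1 and with limma on FPKM.

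Of the 4 enzymes not called, CTH, which releases cysteine from cystathionine, had a log2 fold change of 0.20 (edgeR adjusted p = 0.0913), and PCK2, the mitochondrial PEP carboxykinase, had one of 0.25 (edgeR adjusted p = 0.136). In both, all PSTK-KO libraries were above all controls. CBS, which makes cystathionine, scattered within groups at 1.65, 0.649 and 1.49 FPKM in control and 1.01, 2.76 and 1.38 FPKM in PSTK-KO libraries, and its groups overlapped. It was not called with all libraries (log2 0.45, edgeR adjusted p = 0.171), but was called as higher without a filter, without PSTK-KO replicate 1 and without PSTK-KO replicate 3. CBS shares a near-identical copy, CBSL, whose own level ran from 0.0152 to 1.64 FPKM, so the split of reads between them is uncertain. ALDH1L2, a mitochondrial folate enzyme that overlaps C12orf45, had a log2 fold change of -0.05 and was not called.

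All 6 amino acid transporters were called, 4 as higher and 2 as lower. SLC38A2, a sodium-coupled importer of small neutral amino acids that is induced on starvation, was at 62.5, 66.8 and 64.2 FPKM in control and 77.3, 84.1 and 79.4 FPKM in PSTK-KO libraries. The groups did not overlap (log2 0.31 ± 0.05 SE, edgeR adjusted p = 3.01e-06). SLC1A5, the glutamine and neutral amino acid exchanger, went from 39.4, 33.7 and 36.2 FPKM to 49.9, 45.9 and 45.5 FPKM (log2 0.37 ± 0.06 SE, edgeR adjusted p = 7.23e-06). SLC1A4, its paralog that carries alanine, serine and cysteine, was at 6.51, 6.25 and 6.17 FPKM in control and 7.98, 7.45 and 7.82 FPKM in PSTK-KO libraries (log2 0.29 ± 0.07 SE, edgeR adjusted p = 0.000899). Both paralogs, which held the core shown above beside 1 of their listed starts, were thus higher in every PSTK-KO library. SLC7A1, the main importer of cationic amino acids, rose less (log2 0.17 ± 0.05 SE, edgeR adjusted p = 0.0169) and was not called without control replicate 3, without PSTK-KO replicate 2, without PSTK-KO replicate 3 or with limma on FPKM.

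SLC7A5, the LAT1 exchanger of large neutral amino acids such as leucine, was the most abundant of the 33 genes per length, at 740, 670 and 674 FPKM in control and 562, 563 and 548 FPKM in PSTK-KO libraries. Every PSTK-KO library was lower, with a mean of 558 ± 8.34 FPKM (SD, n = 3) against 695 ± 39.8 FPKM (SD, n = 3), a 1.25-fold fall (log2 -0.32 ± 0.04 SE, edgeR adjusted p = 1.64e-07). SLC6A9, the glycine transporter GLYT1, went from 10.1, 8.61 and 8.65 FPKM to 7.76, 7.66 and 7.92 FPKM. Its PSTK-KO libraries were all lower (log2 -0.23 ± 0.07 SE, edgeR adjusted p = 0.0131), but it overlaps CCDC24 and the call was lost without control replicate 1, without PSTK-KO replicate 2, with DESeq2 and with limma on FPKM.

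XPOT, which exports tRNAs from the nucleus, was at 34.6, 38.3 and 35.6 FPKM in control and 43.2, 46.6 and 44.2 FPKM in PSTK-KO libraries. The groups did not overlap (log2 0.30 ± 0.05 SE, edgeR adjusted p = 1.51e-05). Among the 3 genes for secreted proteins and receptors, STC2, a secreted glycoprotein that inhibits the IGF-cleaving protease PAPP-A, had the smallest p of all 33. It was at 5.54, 4.64 and 4.88 FPKM in control and 15.9, 14.6 and 15.5 FPKM in PSTK-KO libraries. The rise was 3.05-fold with a narrow error (log2 1.61 ± 0.07 SE, edgeR adjusted p = 2.03e-18). VLDLR, the receptor for triglyceride-rich lipoproteins, showed the largest fall of the 33 genes, from 5.05, 5.60 and 5.35 FPKM to 3.16, 3.46 and 3.34 FPKM. The PSTK-KO libraries were 1.61-fold lower without overlap (log2 -0.69 ± 0.07 SE, edgeR adjusted p = 3.82e-09). VEGFA, the angiogenic growth factor, was at 3.97 to 4.45 FPKM in control and 3.65 to 3.93 FPKM in PSTK-KO libraries and did not pass (log2 -0.15 ± 0.07 SE, edgeR adjusted p = 0.0859).

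Of the 23 called members, 19 were called under each of the 12 alternative settings and left-out libraries, 15 as higher and 4 as lower. The calls lost at least once were CEBPB, PYCR1, SLC7A1 and SLC6A9, all with small fold changes.

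Other genes of the same pathway were counted from 3 further lists, which were also chosen with earlier results of these data known. Of 12 cytosolic aminoacyl-tRNA synthetases, which charge tRNAs with amino acids, 10 rose and 0 fell, where 15.6% and 17.2% of all genes did so (median log2 fold change 0.24). WARS, for tryptophan, was at 24.4, 24.8 and 23.6 FPKM in control and 40.2, 41.0 and 38.9 FPKM in PSTK-KO libraries. All of its PSTK-KO libraries were higher (log2 0.72 ± 0.05 SE, edgeR adjusted p = 2.07e-13). MARS, for methionine, followed (log2 0.53 ± 0.05 SE, edgeR adjusted p = 9.51e-10) and then CARS, for cysteine (log2 0.48 ± 0.06 SE, edgeR adjusted p = 4.76e-08). The 2 synthetases not called were EPRS and NARS, with log2 fold changes of 0.05 and 0.03.

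The eIF2 list, with the eIF2 kinases, the subunits of eIF2 and of its exchange factor eIF2B, and their regulators, had 0 of 14 genes that rose and 4 that fell (28.6%, against the same 17.2% of all genes), with a median log2 fold change of -0.06. Whether the lists differed was not tested. PPP1R15B, the constitutive eIF2 phosphatase subunit, was lower in PSTK-KO cells (log2 -0.34 ± 0.05 SE, edgeR adjusted p = 2.41e-06), as were EIF2AK1, the heme-regulated kinase HRI (log2 -0.32 ± 0.05 SE, edgeR adjusted p = 3.67e-06), and EIF2AK3, the ER stress kinase PERK (log2 -0.35 ± 0.10 SE, edgeR adjusted p = 0.00615). The fourth was EIF2B5, a subunit of eIF2B, with an edgeR adjusted p of 0.0478.

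Of 10 further ATF4 targets, 9 passed the filter, 6 rose and 3 fell (median log2 fold change 0.37). These were 66.7% and 33.3% of the genes tested in the list, against 15.6% and 17.2% of all genes. ADM2, a secreted peptide of the calcitonin family, was at 0.351, 0.437 and 0.523 FPKM in control and 1.64, 1.77 and 1.76 FPKM in PSTK-KO libraries, a rise of 3.92-fold (log2 1.97 ± 0.20 SE, edgeR adjusted p = 1.3e-09). ATF3, a stress-induced repressor of the same bZIP class, fell in PSTK-KO cells (log2 -0.60 ± 0.06 SE, edgeR adjusted p = 9.18e-10), as did KLHL24, a cullin adaptor (log2 -0.74 ± 0.08 SE, edgeR adjusted p = 1.56e-09). SLC3A2, named after its values were seen because it encodes the heavy chain that pairs with SLC7A5, was the other that fell. It went from 196, 184 and 201 FPKM to 175, 169 and 166 FPKM, so both chains of LAT1 were lower in every PSTK-KO library (SLC3A2 log2 -0.19 ± 0.04 SE, edgeR adjusted p = 0.000896). SLC7A11, another transporter gene of this list, was among the 6 that rose (log2 0.49 ± 0.07 SE, edgeR adjusted p = 8.93e-07). FGF21, a hepatokine, did not pass the filter, with 0, 0 and 0 counts in control and 3, 1 and 0 in PSTK-KO libraries.

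**Figure D3:**
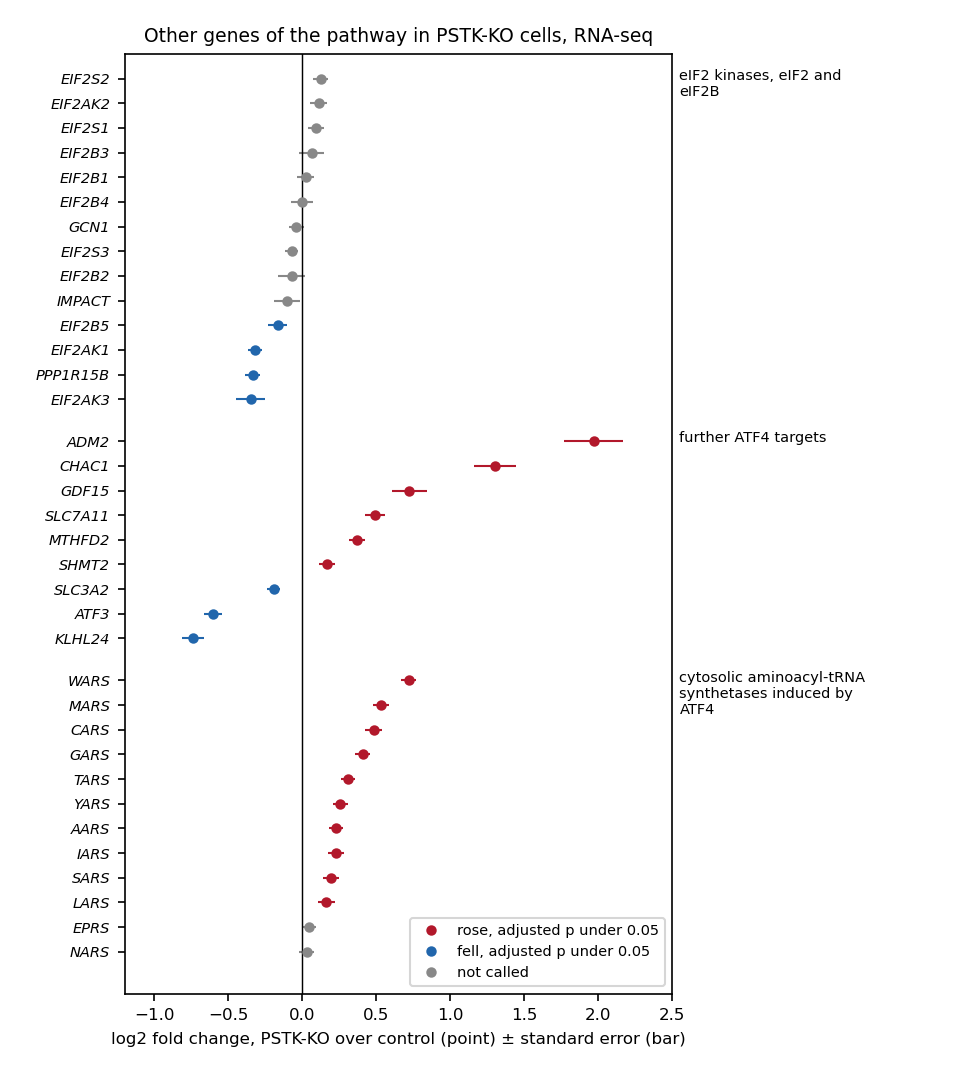
Log2 fold change of PSTK-KO over control Hep3B for the 35 tested genes of 3 further lists of the pathway, as points with standard error bars from the edgeR fit. The synthetases lie at or right of 0, the eIF2 genes lie close to 0 or left of it, and the further ATF4 targets spread from -0.74 for KLHL24 to 1.97 for ADM2.

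The second comparison asked whether cells with these genes knocked out were lost or gained under each inhibitor relative to T1. It was expressed as NormZ, a score that averages the change of a gene's guides after scaling by the spread of guides of like abundance. A negative NormZ means that guides were depleted by the inhibitor (resisters in the study's terms) and a positive NormZ that they were gained (sensitizers), each at a one-sided p under 0.01 from the normal approximation. Over the 198 tests of 33 genes and 6 inhibitors in Hep3B, 3 were resisters (1.52%, against 1.77% of tests over all genes) and 0 were sensitizers (against 0.828%). At p under 0.05 the Hep3B sensitizers numbered 2 (4.1% of tests over all genes), and edgeR on summed counts gave 69 (32.8% over all genes). In SNU-398, 1 test was a resister (0.505%, against 1.6%) and 6 were sensitizers (3.03%, against 0.852%). With Erastin replicate 2 and T1 replicate 2 left out of the Erastin screen, these were 1 (against 1.6%) and 5 (2.53%, against 0.851%). With only guides of at least 30 mean counts at T1, SNU-398 had 2 resister calls (against 1.76%) and 1 sensitizer call (against 0.379%). With all guides and libraries kept, the background by screen lay between 1.48% and 1.94% for resisters and between 0.688% and 1.05% for sensitizers. The lowest false discovery rate of any of these calls was 0.267, so none passed a correction over all genes. The median NormZ of the members ran from -0.25 to 0.11 over the Hep3B screens, where all genes had 0.05 to 0.08, and from -0.27 to 0.25 over the SNU-398 screens, where all genes had 0.03 to 0.04. For Erastin in SNU-398 the median was -0.05 with all libraries and -0.04 without replicate 2.

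**Figure D4:**
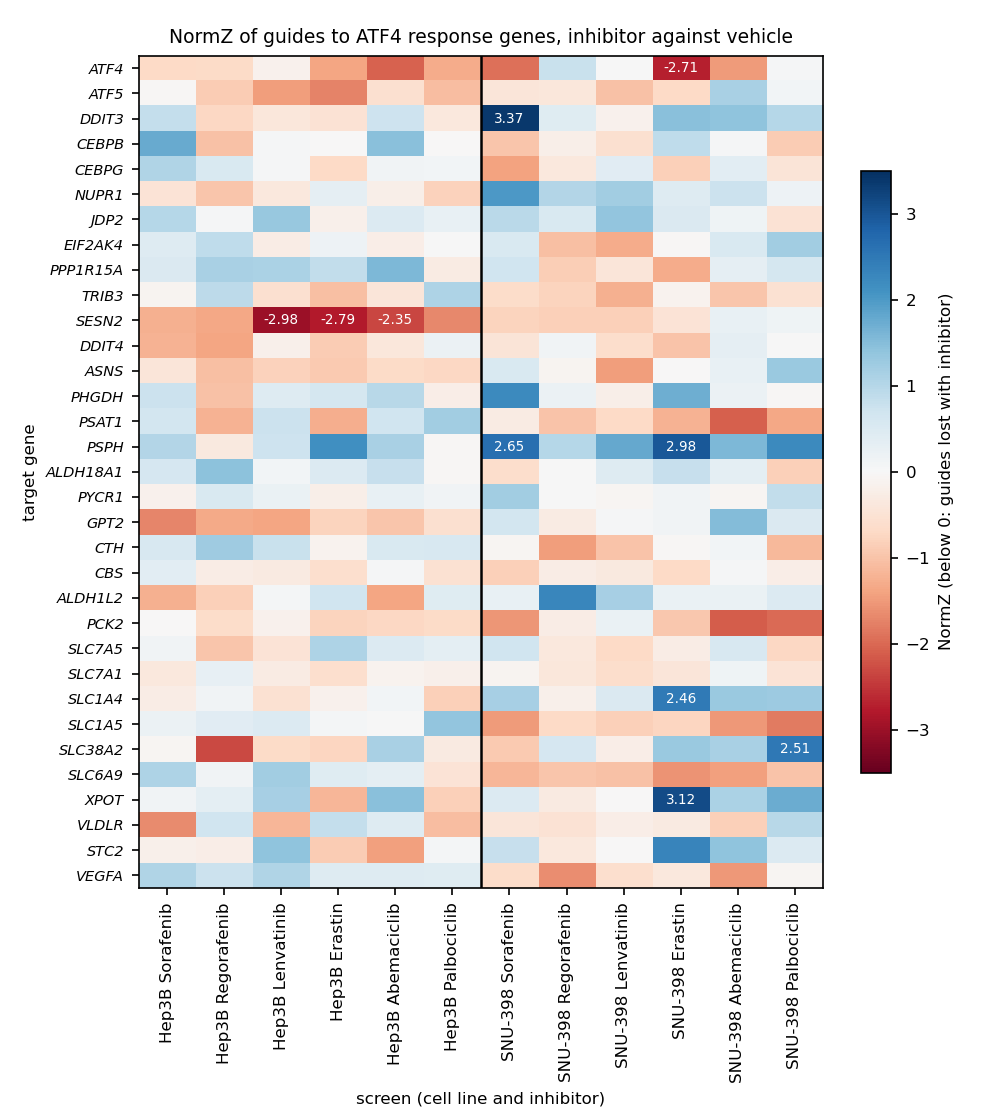
NormZ of each of the 33 genes (rows) in the 12 screens (columns, 6 inhibitors in each of 2 lines, 2 inhibitor against 2 T1 libraries each), with red for guides depleted and blue for guides gained. Values are printed where the one-sided p is under 0.01. The 3 printed values in Hep3B all belong to SESN2, and the 7 in SNU-398 belong to 6 genes.

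SESN2, the leucine sensor, was the only member called in Hep3B and was a resister under 3 inhibitors. Its guides summed to 76.6 and 75.0 CPM (counts scaled to equal library totals) in the 2 T1 libraries. They were at 29.8 and 31.1 CPM with Lenvatinib, 37.5 and 38.3 CPM with Erastin, and 33.1 and 24.9 CPM with Abemaciclib. The remaining inhibitors left 42.6 and 41.3 CPM (Sorafenib), 68.3 and 64.9 CPM (Regorafenib) and 59.0 and 61.2 CPM (Palbociclib). All 12 inhibitor libraries were therefore below both T1 libraries, and the T0 libraries, at 57.5 and 52.7 CPM, were below T1 as well. NormZ was -2.98 with Lenvatinib (rank 97 from the lowest of 18029 genes, of which 1.84% were called), -2.79 with Erastin (rank 115, 1.64% called) and -2.35 with Abemaciclib (rank 285, 1.66% called). It was -1.24, -1.36 and -1.69 with Sorafenib, Regorafenib and Palbociclib, so all 6 scores, which share the T1 libraries, were below 0. The Lenvatinib and Erastin calls were kept under 8 of 8 alternatives, and the Abemaciclib call under 4 of 8. NormZ sets each inhibitor library against the T1 library that bears its number, a processing step, since the labels tie these numbers to no shared culture, and both were left out together. Without both replicate 2 libraries the Abemaciclib score was -1.97, and without T1 replicate 2 alone it was -2.27, both short of the threshold.

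Of the 4 guides to SESN2, 1 held 92.6% of its T1 counts in Hep3B, and that guide went from 71.0 and 69.3 CPM at T1 to 29.8 and 31.0 CPM with Lenvatinib. A second guide went from 5.13 and 5.13 CPM to 0 and 0 CPM with Lenvatinib, and to 0.713 and 0.157 CPM with Erastin. The other two were at or below 0.489 CPM in the T1 libraries. In SNU-398, SESN2 guides were at 66.9 and 63.1 CPM at T1 and at 48.6 to 80.3 CPM in the inhibitor libraries, on both sides of T1, and NormZ lay between -0.83 and 0.25.

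**Figure D5:**
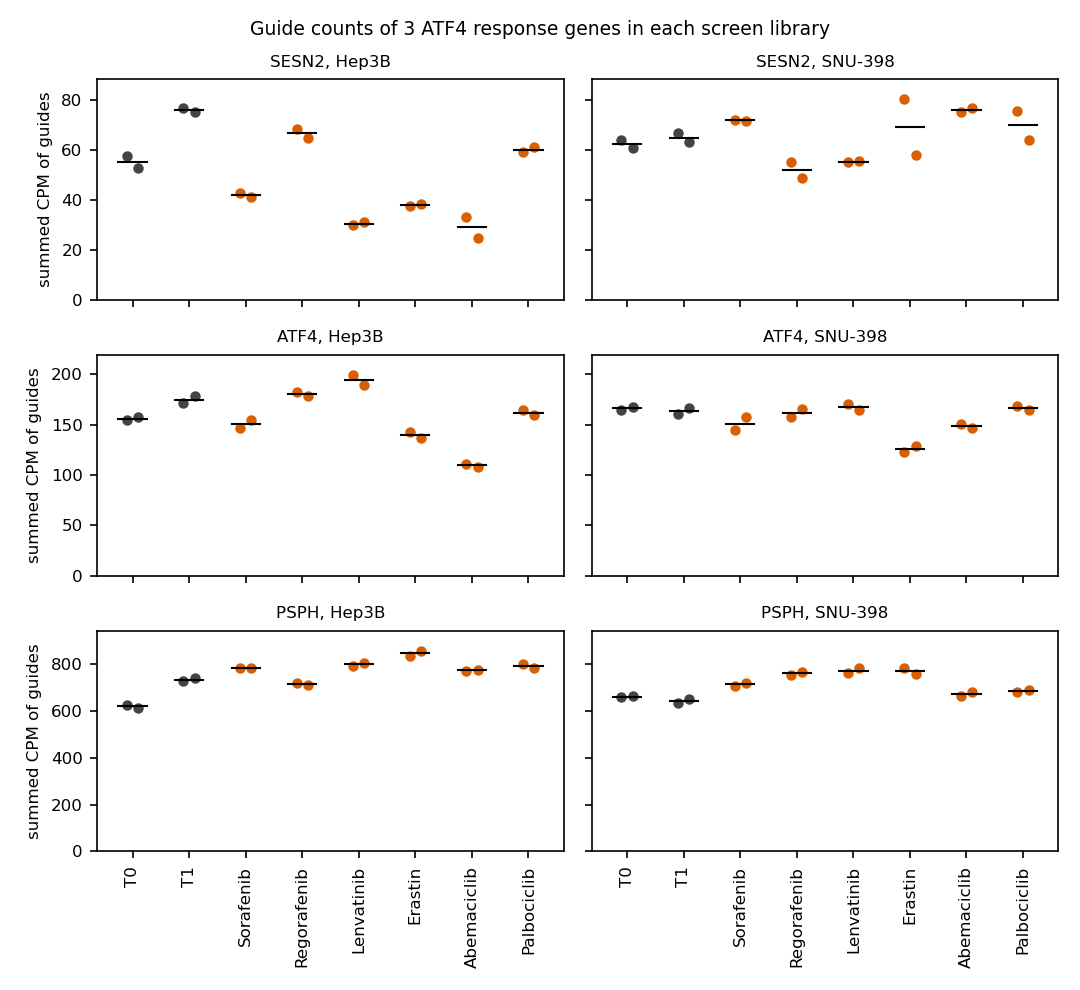
Summed guide CPM of SESN2, ATF4 and PSPH in each screen library of Hep3B (left) and SNU-398 (right). Points are the 2 libraries of a group, lines are their mean, and each axis starts at 0. SESN2 in Hep3B is below T1 in all inhibitor libraries, and PSPH in SNU-398 is above T1 in all of them.

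ATF4 itself was a resister in 1 screen, Erastin in SNU-398, with 160.8 and 166.1 CPM at T1 and 122.5 and 129.2 CPM with Erastin. Both Erastin libraries were lower (NormZ -2.71, rank 150 from the lowest of 18036 genes, of which 1.58% were called), and NormZ was -2.52 without Erastin and T1 replicate 2. It was -2.02 without Erastin and T1 replicate 1 and -2.29 without T1 replicate 2, and each of these ended the call. In Hep3B the 6 scores of ATF4 ran from -2.07 with Abemaciclib to -0.16 with Lenvatinib. DDIT3 was a sensitizer with Sorafenib in SNU-398 (NormZ 3.37, rank 11 from the highest, 0.848% of genes called). Its guides were at 134.6 and 127.4 CPM at T1 and 161.2 and 156.8 CPM with Sorafenib, and 1 of its 3 guides went from 0 and 0 CPM to 3.02 and 3.99 CPM. With only guides of at least 30 mean counts at T1, the score was 1.60 and the call was lost.

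PSPH was a sensitizer with Sorafenib (NormZ 2.65, rank 59 from the highest) and with Erastin (NormZ 2.98, rank 34, 0.876% of genes called) in SNU-398. Its 6 scores there, which share the T1 libraries, were all above 0, from 0.99 to 2.98. Its guides were at 636 and 654 CPM at T1, 709 and 722 CPM with Sorafenib and 784 and 761 CPM with Erastin. All 12 inhibitor libraries were above both T1 libraries, and 95.8% of the T1 counts came from 1 guide of 3. Without Erastin and T1 replicate 2 the Erastin score was 2.49, and this call was kept under 8 of 8 alternatives. The Sorafenib call was lost without Sorafenib and T1 replicate 1 (NormZ 2.16) and with only guides of at least 30 mean counts (NormZ 1.57). In the same pathway, PSAT1 had 6 negative scores in SNU-398, from -2.10 to -0.28, and PHGDH had scores from -0.21 to 2.22, none of them called. The 3 serine enzymes thus did not have scores of 1 sign in SNU-398, while their rise in PSTK-KO RNA was measured in Hep3B. In Hep3B the scores ran from -1.02 to 0.98 for PHGDH, -1.26 to 1.21 for PSAT1 and -0.34 to 2.14 for PSPH. None of these was called.

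The other calls in SNU-398 were of genes for transport. XPOT was at 446.8 and 431.6 CPM at T1 and 453.0 and 518.6 CPM with Erastin, the higher value being replicate 2 (NormZ 3.12, rank 21 from the highest). Without that library and T1 replicate 2 NormZ was 1.90 and the call was lost. The call was also lost with only guides of at least 30 mean counts at T1 (NormZ 1.28). Of the 4 guides, 1 held 100% of the T1 counts. SLC1A4 was at 6.73 and 7.09 CPM at T1 and 17.8 and 14.1 CPM with Erastin (NormZ 2.46, rank 114 from the highest). Both Erastin libraries were higher, but NormZ was 1.85 without replicate 1 and 2.26 without replicate 2 of Erastin and T1, neither called, and the call was kept under 4 of 8 alternatives. SLC38A2 was at 21.5 and 13.3 CPM at T1 and 27.1 and 24.99 CPM with Palbociclib (NormZ 2.51, rank 112 from the highest, 0.948% of genes called), from 2 guides. The T1 libraries differed here, and NormZ was 1.87 without replicate 2 of Palbociclib and T1 and 1.89 without T1 replicate 2 alone, neither called. With only guides of at least 30 mean counts at T1, NormZ of SLC38A2 was 1.61 and the call was lost. The secreted protein gene STC2 was a sensitizer only once Erastin and T1 replicate 2 were left out, with NormZ 2.60 then and 2.31 with all libraries. Its guides were at 95.98 and 87.6 CPM at T1 and 122.7 and 98.8 CPM with Erastin.

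Outside these calls the scores of all 33 genes lie inside the threshold by definition. The outermost were -2.32 (SLC38A2 in Hep3B with Regorafenib) and 2.31 (STC2 in SNU-398 with Erastin, all libraries kept). The direction of a gene's scores was often mixed. The 6 scores of a gene in a line share the T1 libraries. GPT2 had 6 scores below 0 in Hep3B, from -1.70 to -0.57, and -0.27 to 1.51 in SNU-398. SLC6A9 had -1.57 to -0.97 in SNU-398 and -0.49 to 1.20 in Hep3B, and SLC1A5 had -1.82 to -0.69 in SNU-398 and 0.01 to 1.39 in Hep3B. EIF2AK4, the amino acid sensor at the head of the pathway, had scores from -0.25 to 0.90 in Hep3B and -1.29 to 1.20 in SNU-398, with no guide of at least 30 mean counts at T1 in Hep3B. Depth therefore limits what can be said of that gene.

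Whether the lines differed under the same inhibitor was tested on the difference of NormZ over 18025 genes. The difference was called for 0 members under any of the 6 inhibitors, and 0 to 2 members per inhibitor were at an unadjusted p under 0.05. The count was also 0 without Erastin replicate 2 of SNU-398. Over all genes, calls numbered 0 to 6 per inhibitor (0.0074% of tests). The lowest adjusted p of a member was 0.89, for SLC1A5 with Palbociclib (NormZ 1.39 in Hep3B and -1.82 in SNU-398, normal approximation). For XPOT with Erastin the scores were -1.17 and 3.12, the difference was -4.29 and the adjusted p was 0.981, against -3.07 and 0.999 without Erastin replicate 2 of SNU-398. SESN2 was called in Hep3B and not in SNU-398, and the test did not call that difference under any inhibitor.

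The third comparison, of T1 with T0, asked whether guides to these genes changed over 14 days without inhibitor. Guide counts were summed per gene and fitted with edgeR over the 16 libraries of a line. In Hep3B, 11 members were higher and 8 lower at T1, where 29.1% and 33.5% of all genes were called, and the median log2 fold change was 0.08 over members and -0.04 over all genes. In SNU-398, 1 was higher and 0 lower, where 6.33% and 6.74% of all genes were called, with medians of 0.06 and -0.02. Leaving out Erastin replicate 2 of SNU-398, which takes no part in the contrast but sets the spread, gave 7 higher and 4 lower, where 19.2% and 20% of all genes were called.

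ASNS had the largest fall among the members called in Hep3B, from 12.2 and 12.1 CPM at T0 to 2.04 and 2.48 CPM at T1 (log2 -2.43 ± 0.33 SE, edgeR adjusted p = 8e-13). The sum over its guides was thus several times lower in both T1 libraries. In SNU-398 this sum was 7.56 and 8.24 CPM at T0 and 11.8 and 10.4 CPM at T1, which was not called (edgeR adjusted p = 0.246). The difference between the lines was not tested. In Hep3B the T1 sums of ASNS were 50 and 30 counts, and 0 of its 4 guides had a mean of at least 30 counts there. At T0, 84.6% of its counts came from 1 guide. SLC7A5 went from 5.52 and 5.77 CPM to 2.93 and 2.15 CPM in Hep3B (log2 -1.10 ± 0.34 SE, edgeR adjusted p = 0.00237). Its T1 sums were 72 and 26 counts, with 89.8% of T1 counts from 1 guide. ALDH1L2 went from 13.5 and 15.6 CPM to 6.52 and 9.92 CPM (log2 -0.85 ± 0.20 SE, edgeR adjusted p = 4.87e-05). For each of these genes both T1 libraries were below both T0 libraries, and the call of ALDH1L2 was lost without T1 replicate 1 (log2 -0.54).

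Among the members called in Hep3B, the largest rises were those of CEBPG, from 1.03 and 0.657 CPM to 4.07 and 3.39 CPM (log2 2.12 ± 0.39 SE, edgeR adjusted p = 2.29e-07), and VEGFA, from 14.7 and 15.5 CPM to 29.97 and 29.6 CPM (log2 1.0 ± 0.09 SE, edgeR adjusted p = 6.97e-28). ALDH18A1 followed, from 15.4 and 15.2 CPM to 23.5 and 23.6 CPM (log2 0.64 ± 0.11 SE, edgeR adjusted p = 6.04e-08). NUPR1 (log2 0.89, edgeR adjusted p = 0.0811) and EIF2AK4 (log2 0.68, edgeR adjusted p = 0.224) had larger estimates than ALDH18A1 and were not called. In each of the 3 called genes the T1 libraries lay above the T0 libraries, and for CEBPG this rested on 18 to 100 counts per library. The most counted guide of VEGFA held 46.8% of its T0 counts and 90.1% of its T1 counts, so its guides did not change alike. For CEBPG these shares were 72.7% and 98.6%, and for ALDH18A1 they were 91.5% and 97.9%. The gene called in SNU-398 was VLDLR, from 95.3 and 94.4 CPM to 115 and 122 CPM (log2 0.32 ± 0.09 SE, edgeR adjusted p = 0.0343). This call was lost when any 1 of these 4 libraries was left out. Such fits leave 1 library in a group, and they also called a smaller share of all genes. In Hep3B VLDLR was among the 8 that fell (log2 -0.22 ± 0.06 SE, edgeR adjusted p = 0.0004). Of the 19 calls in Hep3B, 13 were made under every fit to summed counts, but NormZ over guides, which weighs each guide of a gene alike, called 0 in either direction in both lines.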

How the data were processed

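RNA was read from 6 Hep3B libraries and guide inserts from 32 screen libraries. The authors deposited counts in whole numbers, by gene for RNA and by guide for the screens, and FPKM per gene as the authors computed them. Per the submitters' processing notes, HISAT2 2.0.5 and featureCounts 1.5.0-p3 were used for RNA, and the methods name Bowtie2 for guides. The notes name a mouse build, whereas identifiers are human and all 33 members lie at their GRCh38.p14 positions. Strand settings and the build of guide positions were not given in the sources used here. Columns with the authors' own group means and differential test were not used. In the screens, 77.2% to 97.4% of nonzero counts per library were even numbers. In Hep3B, 4.34% to 6.43% of guides were at 0 in T0 libraries and 38.7% to 52.8% in the libraries of 14 days. In SNU-398 these shares were 10.7% to 12.6% and 22.5% to 40.9%.

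Gene counts were tested with edgeR 4.0.16 (quasi-likelihood, TMM, filterByExpr, 4 residual degrees of freedom for RNA and 8 for screens, Benjamini-Hochberg over all genes tested). NormZ followed the steps of DrugZ: counts scaled to 10000000, pseudocount 5, spread smoothed over windows of 1000 guides, T1 and inhibitor libraries paired by number (the labels tie these numbers to no shared culture), control guides left out. CPM was computed from the deposited counts and each library's total. Steps were tested on simulated data. Alternatives were DESeq2 1.42.0, limma 3.58.1 on log2(FPKM + 1), median-of-ratios scaling, no filter, a replicate block, pseudocount 1, guides with at least 30 mean T1 counts, p under 0.05, and leaving out libraries. Each library in turn was left out for the RNA-seq, and each T0 and T1 library for T1 against T0. SNU-398 Erastin replicate 2 was also left out. For NormZ, a T1 library was left out alone or together with the inhibitor library of its number. Scripts ran in Python 3.11.15 and R 4.3.3.

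The members and lists were chosen with earlier results of these data known. Values per library are given for up to 3 members of each role with the smallest adjusted p and any called against its group, for members past p under 0.01 in a screen, for the 3 largest falls and rises of T1 against T0 per line, and for up to 3 genes of each further list. Other genes named were chosen after their values were seen.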

Additional observations from a re-analysis of the deposited data

How the results depend on the processing

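For the RNA-seq, leaving out 1 library gave 16 to 18 members higher and 4 to 6 lower, and the other settings gave 15 to 18 and 4 to 6. Log2 fold changes, not called with all libraries, whose sign changed were EIF2AK4 (-0.075 to 0.049 over left-out libraries, above 0 without control replicate 2), CBS (-0.072 to 0.71, below 0 without PSTK-KO replicate 2 but called as higher without PSTK-KO replicate 1, without PSTK-KO replicate 3 and without a filter, at edgeR adjusted p = 0.0103, 0.0428 and 0.0116) and ALDH1L2 (-0.14 to 0.13, with 0.13 without control replicate 2 and 0.041 without PSTK-KO replicate 3). Same-numbered libraries did not deviate together (r of 0.03, 0.07 and 0.00 in the RNA-seq and -0.01 to 0.02 in the screens). With the replicate number as a block, 18 members were higher and 6 lower in the RNA-seq, the added one being VEGFA (edgeR adjusted p = 0.0457), which was also called without control replicate 2 (log2 -0.20, edgeR adjusted p = 0.0276). For T1 against T0 in Hep3B, NormZ over guides gave 0 higher and 0 lower, and left-out libraries gave 9 to 10 higher and 6 to 7 lower. In SNU-398 the 1 higher member became 2 with DESeq2, 2 without a filter, 8 with only T0 and T1 libraries (22.4% of all genes), 0 with NormZ, 0 to 7 with libraries left out (7 without Erastin replicate 2, 19.2% of all genes), and the 0 lower became 4 with only T0 and T1 libraries (23.6% of all genes) and 0 to 4 with libraries left out. For the screen calls, the share of the 198 member tests is followed by that of all gene tests. The 3 Hep3B resister calls became 9 at p under 0.05 (4.55%, 5.74%), 76 with edgeR on summed counts (38.4%, 37.5%) and 2 to 4 with libraries left out. The 0 Hep3B sensitizer calls became 1 with median-of-ratios scaling (0.505%, 0.964%), 2 at p under 0.05 (1.01%, 4.1%), 69 with edgeR (34.8%, 32.8%) and 0 to 1 with libraries left out. The 1 SNU-398 resister call became 2 with guides of at least 30 mean counts (1.76% of all gene tests), 6 at p under 0.05 (3.03%, 5.36%), 31 with edgeR (15.7%, 15.1%) and 0 to 3 with libraries left out. The 6 SNU-398 sensitizer calls became 1 with guides of at least 30 mean counts (0.379% of all gene tests), 14 at p under 0.05 (7.07%, 4.41%), 29 with edgeR (14.6%, 13.3%) and 4 to 7 with libraries left out. With edgeR and without Erastin replicate 2, chosen after seeing the data, these were 58 (29.3%, 25.3%) and 43 (21.7%, 23.5%). For NormZ, Erastin replicate 2 was left out together with T1 replicate 2. edgeR on sums follows the most counted guide of a gene, and the cause of the other shifts was not tested. There were 2 libraries per group in the screens, which limits the precision, and the size of effect that could be detected for these genes was not tested.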

Other observations

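Guide representation of the 33 genes was uneven in ways that belong to no comparison. At T1 the most counted guide held a median of 90.8% of a member's counts in Hep3B and 80.4% in SNU-398, and it held over 90% in 19 and 14 of the 33 genes. Only 57 of 127 member guides in Hep3B and 56 of 125 in SNU-398 had a mean of at least 30 counts at T1. In 29 of 33 members the guide with the most T0 counts was the same in both lines.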
